A study of Mus musculus with 6 samples.

Results

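The Argonaute and microRNA processing genes examined here are the 10 rows of the deposited mRNA table whose symbol is Ago1, Ago2, Ago3, Ago4, Dicer1, Drosha, Dgcr8, Tarbp2, Prkra or Xpo5. All 10 were found among 22298 genes, and 9 of them had enough counts to be tested, Ago4 being the exception. The libraries are of total RNA from GC-1spg, immortalised mouse cells that stand in for type B spermatogonia, grown in DMEM with 10% FBS. Of the 6 libraries, 3 came from cells given a control siRNA (si-NC; tagged as untreated in the labels) and 3 from cells given an siRNA against Mettl3 (si-METTL3), which encodes the catalytic subunit of the writer of N6-methyladenosine in messenger RNA. Cells were transfected at 60% density and collected 48 h later, and no library is of untransfected cells. Nothing in the labels says that replicates were separate cultures, so the p-values here reflect only library-to-library spread, possibly technical.

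A microRNA begins as a hairpin in a longer primary transcript. In the nucleus the Microprocessor, made of the RNase III enzyme Drosha and its RNA-binding partner Dgcr8, cuts the hairpin out, and the export receptor Xpo5 carries it to the cytoplasm. There a second RNase III enzyme, Dicer1, helped by the double-stranded RNA-binding proteins Tarbp2 (TRBP) and Prkra (PACT), trims it to a duplex, of which 1 strand is loaded into an Argonaute protein (Ago1 to Ago4). The loaded Argonaute finds messenger RNAs by pairing with the guide's seed, bases 2 to 8, and represses them. Ago2 is the family member best known for cutting its targets, which is also how a transfected siRNA lowers its target. The m6A mark on primary microRNA transcripts has been reported to help Dgcr8 recognise them. Neither m6A, nor microRNAs, nor proteins were measured in these libraries.

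The siRNA of the labels is shown because it acts through these same proteins. The labels give the same sequence for the control, whose own sequence is therefore unknown. The printed sequence matches coding exon 6 of Mettl3 on the minus strand (chr14:52297548-52297566, GRCm38). The lines give it 5′ to 3′ as printed and then as its reverse complement, the strand that would pair with Mettl3, with that strand's seed in capitals.
METTL3 siRNA as printed: gctaccgtatgggacatta
Reverse complement: tAATGTCCcatacggtagc
Mettl3 itself had 606, 578 and 683 counts with si-NC and 142, 134 and 136 with si-METTL3. The log2 change was -1.79 (SE 0.14, edgeR adjusted p = 0.000579).

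Library totals in the mRNA table ran from 22146057 to 37698956 counts. The cell line's label had limited support from germ cell markers. Of 20 spermatogonial and germ line markers, 11 stayed under 10 counts in every library, among them Ddx4 and Dazl, and 6 were at 0 throughout. Others were higher, such as Tdrd7 (465 to 2127 counts) and Uchl1 (865 to 1516). The 20 summed to 99, 91.5 and 111 CPM (counts scaled to library size) with si-NC. With si-METTL3 they summed to 77.3, 70.4 and 66.5, and of the 7 tested 1 rose and 2 fell. The germ line markers did not move as a set. Tdrd7 had 1432 to 2127 counts with si-NC and 465 to 834 with si-METTL3. Uchl1 had 1057 to 1516 and 865 to 1291, and Gfra1 78 to 118 and 89 to 140, none of them scaled to library size. Markers of other cell types differed between libraries. The 17 lung markers summed to 12.1 and 10.3 CPM in replicates 1 and 2 of si-NC, 73.2 in replicate 3 and 72.2 to 105 across si-METTL3. The 9 blood markers summed to 0.713, 1.06 and 12.9 with si-NC and to 13.8 to 20.1 with si-METTL3, and the 12 macrophage and endothelial markers to 24.9, 24.4 and 47.9 with si-NC and to 47.2 to 59.4 with si-METTL3. The 9 Sertoli and Leydig cell markers summed to 294, 263 and 297 CPM with si-NC and 411, 449 and 433 with si-METTL3, with no overlap, and of the 6 tested 2 rose and 1 fell. They did not move as a set: Clu and Wt1 had higher values with si-METTL3, and Gata4, Star and Amh lower ones. Only 1 gene of this list passed as lower. Sox9 had 547 to 834 unscaled counts with si-NC and 527 to 828 with si-METTL3. Clu had 1042 to 1757 counts with si-NC and 2672 to 3291 with si-METTL3, and Gata4 1122 to 1579 and 648 to 1039. The 10 brain markers summed to 67 to 71.5 CPM with si-NC and 72.5 to 79.7 with si-METTL3, and of the 10 tested 1 rose. Most of that sum was Mbp, which had 2306, 1628 and 2199 counts with si-NC. By contrast, 5 of the brain markers, Camk2a and Snap25 included, had 0 counts in si-NC replicate 1 alone (Camk2a 83 and 74 in the other two si-NC libraries, Snap25 41 and 45). In bulk RNA, more cells of a type, more RNA per cell and any other source of these reads cannot be told apart. The part of these markers' sources in the results that follow was not tested.

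Of the 9 tested genes, Ago1 rose, Ago2 fell and 7 did not pass the threshold (edgeR quasi-likelihood test, adjusted p under 0.05 over all tested genes). Over the whole table, a share of 18.9% of tested genes passed, 8.67% higher and 10.2% lower, so 2 of 9 is close to the background. Ago1, Ago2 and Tarbp2 were the 3 tested genes whose groups did not overlap in CPM, against 41.5% of all tested genes. The level with si-METTL3 was 1.25 times that with si-NC for Ago1 and 0.83 times for Ago2.

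**Figure D1:**
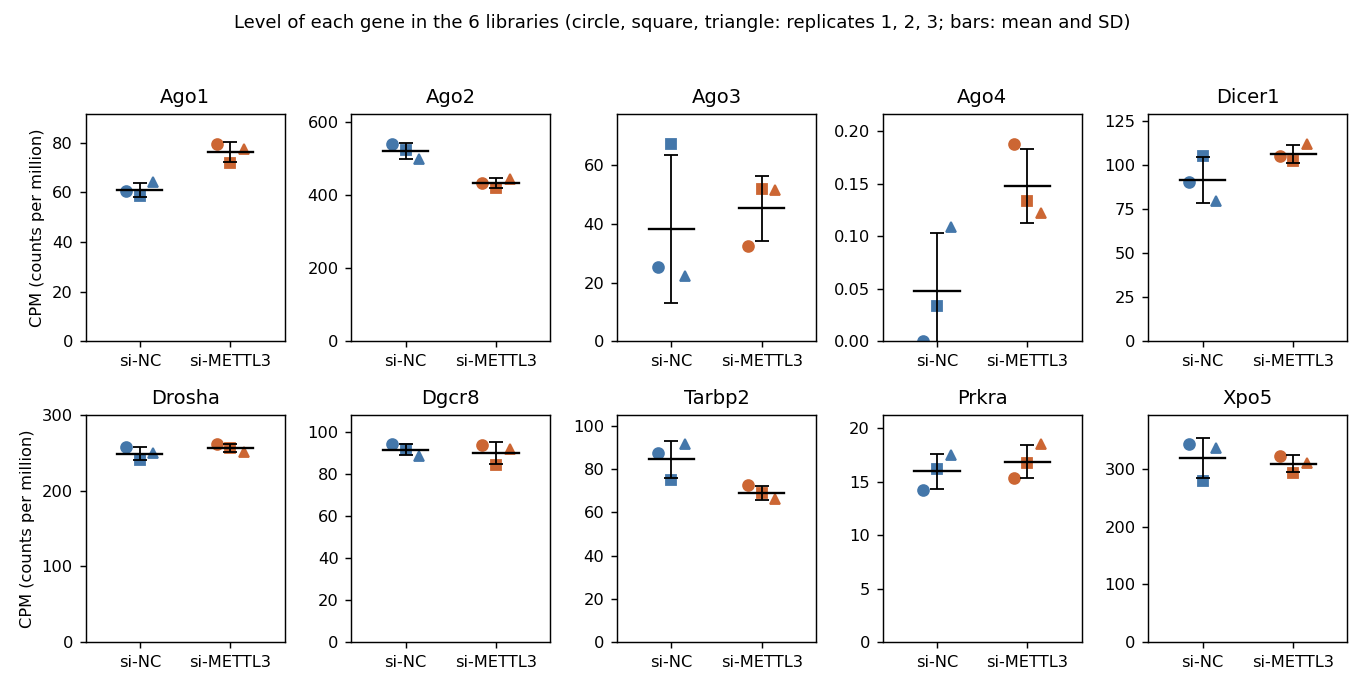
CPM of the 10 genes in each library, with si-NC in blue and si-METTL3 in orange, replicates 1 to 3 as circle, square and triangle, and bars for mean and SD (n = 3). Ago1 lies at 58.5 to 64.1 with si-NC and 71.8 to 79.5 with si-METTL3, Ago2 at 498 to 540 and 419 to 445, and for Ago3 the si-NC replicate 2 library stands at 67.2 against 25.2 and 22.2 in the other two.

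Per length, Ago2 was the leading transcript of the 10. FPKM (fragments scaled to transcript length and library total, as the authors deposited it) was 85.52, 87.88 and 80.87 for Ago2 in si-NC, above every other gene of the set in every library. Tarbp2, Xpo5 and Drosha followed in si-NC, at means of 52.8 ± 4.67, 51.4 ± 5.03 and 45.9 ± 1.20 FPKM (SD, n = 3), with libraries that overlapped between Tarbp2 and Xpo5 and between Xpo5 and Drosha. Dgcr8 stood apart from them at 21.7 ± 0.245 FPKM and barely from Dicer1 at 18.5 ± 2.70. The lowest Dgcr8 library was at 21.53 and the highest Dicer1 library at 21.47. Prkra (8.45 ± 0.843) and Ago1 (8.27 ± 0.762) overlapped, and Ago3 was lower still at 5.32 ± 2.32. In si-METTL3 the order changed at 3 places: Tarbp2 stood below Xpo5 and Drosha, Dicer1 stood level with Dgcr8 (22.4 ± 0.456 and 20.3 ± 1.94, libraries overlapping), and Ago1 stood above Prkra (10.4 ± 0.107 and 9.16 ± 0.880, libraries apart). These values leave out Dicer1-206, a Dicer1 transcript listed apart as noncoding, which had 9.74, 11.38 and 8.42 FPKM with si-NC. The order of Dicer1 and Dgcr8, and its change, are therefore given only for the transcripts counted here.

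Ago2, the Argonaute with slicing activity, spans 73095844 to 73184935 of chromosome 15 (minus strand, GRCm38). Its level was 540, 523 and 498 CPM with si-NC and 434, 419 and 445 CPM with si-METTL3, each si-METTL3 library below each si-NC library. The log2 fold change was -0.27 (SE 0.06, 95% interval -0.41 to -0.12, edgeR adjusted p = 0.0287), a level 16.9% lower. The FPKM values gave the same order, 80.87 to 87.88 with si-NC and 66.91 to 75.22 with si-METTL3. The authors' deposited table lists a log2 fold change of -0.24 with an adjusted p of 0.0289 for Ago2. The deposited fold changes are log2 ratios of the authors' mean FPKM values, whereas those from edgeR rest on counts. With 1 library left out the log2 change stayed between -0.32 and -0.24, and the call held without si-NC replicate 2 (adjusted p = 0.0154) or si-NC replicate 3 (0.034) but not in the other 4 fits (0.0761 to 0.131). Ago2 shares 219 exonic bases with Chrac1 on the opposite strand, a histone-fold subunit of a chromatin remodeller, and whether counting used strand is not stated in the sources used here. Chrac1 had a value of the same sign as Ago2, -0.37 (SE 0.14, edgeR adjusted p = 0.114), with at most 970 counts in a library, where Ago2 had at least 9399. The part of shared reads in either value was not tested.

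Ago1, which represses targets without efficient slicing, spans 126435012 to 126468583 of chromosome 4 (minus strand, GRCm38), between Ago3 and Ago4. The 3 genes stand in a row on that strand, with 5455 bp between Ago3 and Ago1 and 20957 bp between Ago1 and Ago4. Ago1 was at 60.4, 58.5 and 64.1 CPM with si-NC and at 79.5, 71.8 and 77.6 CPM with si-METTL3, with no overlap. The log2 fold change was 0.32 (SE 0.08, 95% interval 0.14 to 0.50, edgeR adjusted p = 0.0285). The authors' deposited table lists 0.33 with an adjusted p of 0.025.

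The Ago1 value became smaller with a correction for transcript length. Long transcripts had relatively more counts in si-METTL3 libraries and in replicate 2 of si-NC than in its replicates 1 and 3. The slope of log2 CPM per doubling of length was -0.12, 0.02 and -0.14 with si-NC and 0.04, 0.09 and 0.11 with si-METTL3. Each si-METTL3 slope lay above each si-NC slope, so a technical trend and an effect of the treatment cannot be told apart. The correction would remove either, and the source of the trend was not tested. The mean transcript length behind the Ago1 FPKM was 6050 ± 338 nt in si-NC. With each library corrected for length, 17.7% of all tested genes passed and 1 of the 9, Ago2, did: the log2 fold change of Ago1 was 0.07 (edgeR adjusted p = 0.723), whereas that of Ago2, whose transcripts averaged 5018 ± 111 nt, was -0.48 (edgeR adjusted p = 0.00961). The Ago1 call also held in only 1 of the 6 leave-one-out fits, the one without si-NC replicate 2 (adjusted p = 0.024; 0.0532 to 0.117 in the others).

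The balance between the Argonautes differed between the groups, which follows from the opposite Ago1 and Ago2 values above and was not tested apart. Ago2 FPKM was 10.9, 11.3 and 8.84 times that of Ago1 with si-NC and 7.09, 7.14 and 6.46 times with si-METTL3. The groups did not overlap, and si-NC replicate 3, the control library with the high sum of lung markers, lay closest to si-METTL3; the part of those markers' source in the ratio was not tested. Ago2 made up 88.9%, 85.2% and 84.5% of the summed FPKM of the 4 Argonautes with si-NC and 83.8%, 83.7% and 80.8% with si-METTL3. The share of Ago1 was 7.57% to 9.56% with si-NC and 11.7% to 12.5% with si-METTL3. The summed Argonaute FPKM was 96.2, 103 and 95.8 with si-NC and 87.5, 89.9 and 82.8 with si-METTL3, lower in each si-METTL3 library. The paralogs share sequence, and the sources used here do not give how reads matching more than 1 of them were divided.

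**Figure D2:**
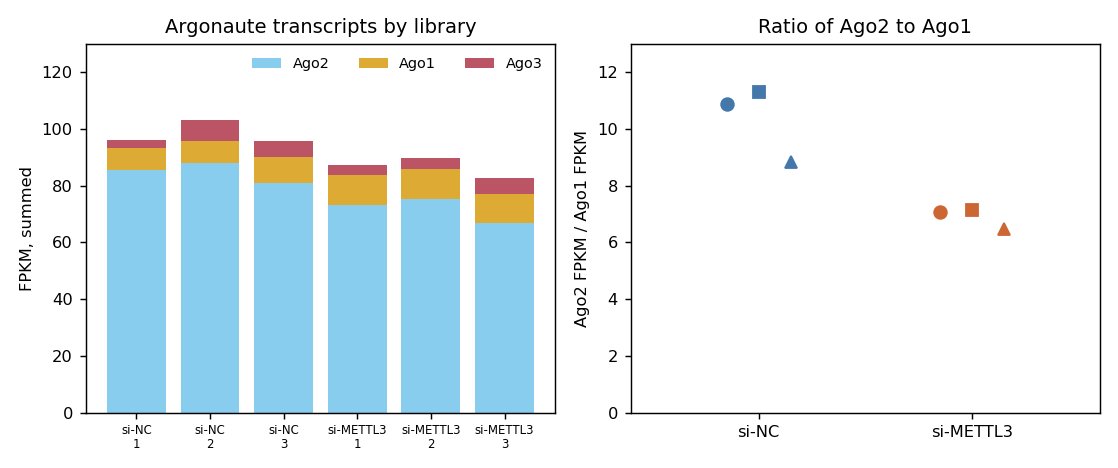
Left, deposited FPKM of Ago2, Ago1 and Ago3 stacked for each library (Ago4, at 0.02 FPKM or below, is not drawn); right, the ratio of Ago2 to Ago1 FPKM by group and replicate (circle, square, triangle). Ago2 makes up most of each bar, and the ratio is 8.84 to 11.3 with si-NC and 6.46 to 7.14 with si-METTL3.

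Ago3 gave no stable value. Its counts were 883, 2026 and 814 with si-NC and 1032, 1165 and 1268 with si-METTL3, so that si-NC replicate 2 was the highest library of all and the other two si-NC libraries the lowest. The log2 fold change over all 6 libraries was 0.24 (SE 0.43, 95% interval -0.77 to 1.26, edgeR adjusted p = 0.709). It was 0.93 without si-NC replicate 2 (edgeR adjusted p = 0.0209) and -0.06 without si-NC replicate 3 (0.94). FPKM ordered the libraries otherwise, at 2.83, 7.42 and 5.72 with si-NC and 3.79, 4.14 and 5.56 with si-METTL3. The authors' deposited log2 fold change, from mean FPKM, was of the opposite sign, -0.24, with a deposited adjusted p of 0.823. The transcript length that connects the deposited counts and FPKM was 7251, 7514 and 3133 nt with si-NC and 7148, 10376 and 7555 nt with si-METTL3. Such a length is a mean over a gene's transcripts, and it was shortest in si-NC replicate 3.

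**Figure D3:**
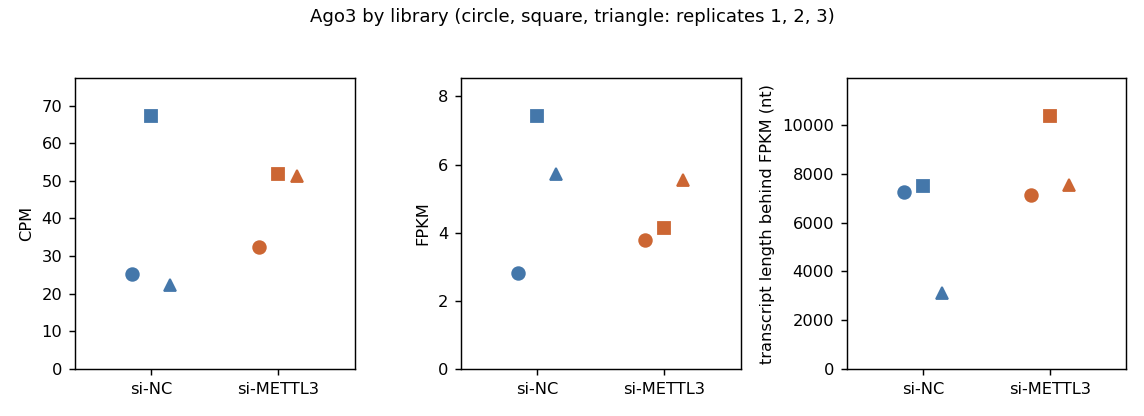
Ago3 in each library as CPM, deposited FPKM and the mean transcript length behind the FPKM, replicates 1 to 3 as circle, square and triangle. The si-NC replicate 3 library is lowest in CPM (22.2) but second highest in FPKM (5.72), with a length of 3133 nt against 7148 to 10376 nt in the other 5.

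Ago4 was close to undetected. It had 0, 1 and 4 counts with si-NC and 6, 3 and 3 with si-METTL3, and these counts were below the minimum for testing.

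Among the genes of the nuclear step, no change was detected. Drosha, the cutting enzyme of the Microprocessor, was at 257, 240 and 250 CPM with si-NC and 261, 256 and 251 CPM with si-METTL3 (log2 fold change 0.04, 95% interval -0.10 to 0.18, edgeR adjusted p = 0.67). Dgcr8, its partner, was at 93.9, 91.9 and 88.5 CPM with si-NC and 93.7, 84.0 and 91.8 CPM with si-METTL3 (-0.02, 95% interval -0.20 to 0.15, edgeR adjusted p = 0.829). For both, the groups overlapped. Drosha changed sign to -0.14 when corrected for length (edgeR adjusted p = 0.276). The ratio of Drosha to Dgcr8 FPKM was 2.15, 2.08 and 2.12 with si-NC and 2.34, 2.63 and 2.12 with si-METTL3, with overlap at 2.12.

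Dgcr8 messenger RNA is itself cut by the Microprocessor, at hairpins in its exon 2. RefSeq's GRCm38.p6 table lists microRNAs from both hairpins, Mir1306 in the coding part and the one of miR-3618 ahead of it. They are shown because they mark where the Microprocessor acts on a gene of its own; seeds are in capitals, and all lie on the minus strand of chromosome 16.
mmu-miR-1306-3p (chr16:18284248-18284268): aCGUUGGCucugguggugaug
mmu-miR-1306-5p (chr16:18284288-18284310): cACCACCUccccugcaaacgucc
mmu-miR-3618-3p (chr16:18284562-18284583): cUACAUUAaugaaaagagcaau
The 2 hairpins lie in the annotated transcripts Dgcr8-201 and Dgcr8-209 but not in Dgcr8-206, a noncoding transcript of 1246 nt from the 3′ part of the gene that the lncRNA table lists separately. Dgcr8-206 had 115, 127 and 205 counts with si-NC and 17, 40 and 86 with si-METTL3, lower in each si-METTL3 library. Its change of -1.31 on the log2 scale (SE 0.57) did not pass (edgeR adjusted p = 0.331 over 5728 tested transcripts, of which 0.733% passed, 0.576% lower, and 24.1% did not overlap between the groups). Dgcr8 shares 825 exonic bases with Trmt2a, a tRNA methyltransferase gene on the opposite strand, which had a log2 fold change of 0.04 (SE 0.10).

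Xpo5, the export receptor, was at 343, 280 and 337 CPM with si-NC and 323, 294 and 311 CPM with si-METTL3. The si-METTL3 values lay within the si-NC range (log2 fold change -0.05, 95% interval -0.27 to 0.17, edgeR adjusted p = 0.733).

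In the cytoplasmic step, Dicer1 and its partner Tarbp2 had values of opposite sign, neither past the threshold. Dicer1 was at 90.4, 105 and 79.3 CPM with si-NC and 105, 102 and 112 CPM with si-METTL3 (log2 fold change 0.22, SE 0.11, 95% interval -0.04 to 0.48, edgeR adjusted p = 0.204). In FPKM its groups were apart, at 17.98, 21.47 and 16.15 with si-NC and 22.78, 21.88 and 22.46 with si-METTL3, and the authors' deposited table lists 0.27 with an adjusted p of 0.33. Dicer1 passed without si-NC replicate 2 (0.32, edgeR adjusted p = 0.0246) and was 0.07 when corrected for length. Tarbp2 was at 87.5, 74.9 and 91.5 CPM with si-NC and 72.5, 68.8 and 66.0 CPM with si-METTL3, each si-METTL3 library below each si-NC library (-0.29, SE 0.09, 95% interval -0.51 to -0.07, edgeR adjusted p = 0.0696). Among the leave-one-out fits, Tarbp2 too passed only without si-NC replicate 2 (-0.38, edgeR adjusted p = 0.00906). Without that library 36.8% of all tested genes passed, and 5 of the 9 did, Ago1, Ago2, Ago3, Dicer1 and Tarbp2.

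Prkra, the activator of the interferon-inducible kinase PKR that also binds Dicer1, was the least abundant tested gene by counts. It was at 14.2, 16.2 and 17.5 CPM with si-NC and 15.4, 16.8 and 18.5 CPM with si-METTL3, with overlapping groups (log2 fold change 0.08, 95% interval -0.20 to 0.36, edgeR adjusted p = 0.654). Tarbp2, a known inhibitor of PKR, exceeded Prkra in FPKM 7.24, 5.37 and 6.28 times with si-NC and 5.50, 4.69 and 3.79 times with si-METTL3, and these ranges overlapped. For PKR's own gene, Eif2ak2, the log2 change was -0.37 (SE 0.34, edgeR adjusted p = 0.469), with 5000 counts in si-NC replicate 2 against 1946 to 2890 in the other 5 libraries.

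**Figure D4:**
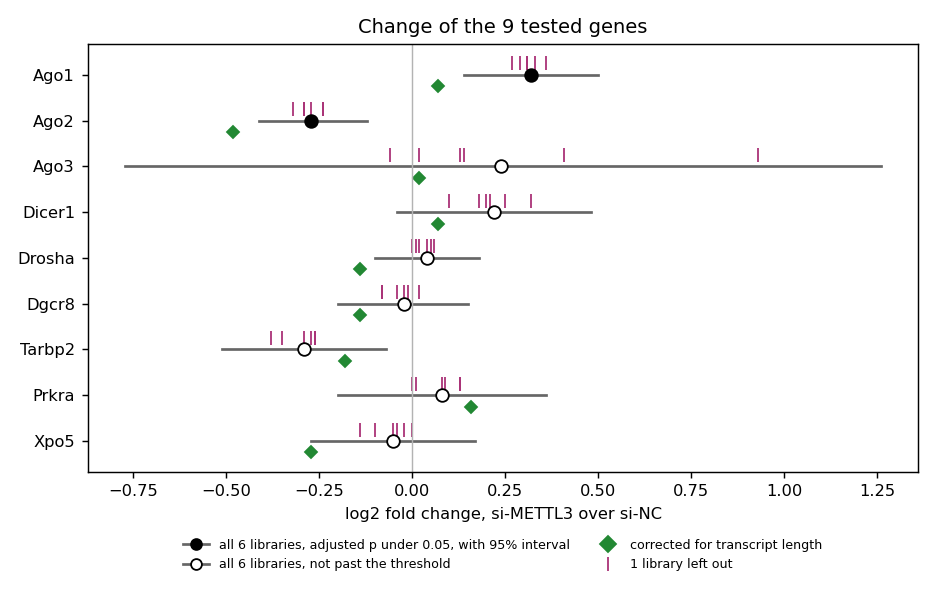
Log2 fold change of the 9 tested genes, si-METTL3 over si-NC, with 95% intervals; filled circles passed adjusted p under 0.05, diamonds are corrected for transcript length, and vertical ticks leave out 1 library each. Ago2 stays below 0 throughout (-0.48 to -0.24), while Ago1 moves from 0.32 to 0.07 with the length correction and the ticks of Ago3 run from -0.06 to 0.93.

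A part of the reads of these genes was held in the lncRNA table, which lists 17 noncoding transcripts of 7 of them by Ensembl identifier. Of these, 9 had enough counts to be tested and none passed (0 at edgeR adjusted p under 0.05, 0 at an unadjusted p under 0.05, and 0 with DESeq2, which gave 2 of them no adjusted p). The groups did not overlap in 2 of the 9, a 616 nt transcript of Ago2 and Dgcr8-206, both lower with si-METTL3, a share near the 24.1% of all tested transcripts. For Dicer1 the share of reads in that table was large. The transcript Dicer1-206, annotated as noncoding with 4724 nt, had 1980, 1953 and 1807 counts with si-NC and 1908, 1419 and 1587 with si-METTL3, so that 38.3% ± 0.127 (SD, n = 3) of Dicer1 reads with si-NC and 37.0% ± 1.12 with si-METTL3 fell outside the mRNA table. Counting both tables, Dicer1 was at 148 ± 20.8 CPM with si-NC and 169 ± 6.51 with si-METTL3, and the libraries overlapped. For Ago2 the share was 4.67% ± 0.186 with si-NC and 4.75% ± 0.632 with si-METTL3, and both noncoding Ago2 transcripts had negative values, -0.36 (SE 0.16) and -0.28 (SE 0.18), neither past the threshold.

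The transcript length behind the FPKM varied to different degrees among the genes. Over the 6 libraries it ran from 5080 to 5081 nt for Xpo5, 4380 to 4493 for Drosha, 1497 to 1571 for Prkra and 3851 to 4098 for Dicer1. It ran wider for Ago1 (5641 to 6451 nt), Ago2 (4607 to 5431), Dgcr8 (3320 to 3817) and above all Ago3, and these groups overlapped. Tarbp2 had 1317, 1308 and 1308 nt with si-NC and 1326, 1341 and 1409 nt with si-METTL3, longer in each si-METTL3 library, though the gap between the ranges was under 1%. A gap between the ranges of over 1% was found in 0 of the 9 genes and in 6.79% of 11561 genes with enough counts.

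The 3 genes whose log2 CPM followed Ago1 most closely over the 6 libraries were Zfp395 (Pearson r = 0.9998), Ppip5k1 (0.9983) and Lix1l (0.9973), out of 10099 compared. A correlation over 6 libraries that differ in treatment, depth and length trend is weak evidence of likeness, and 290 genes had r above 0.95.

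Beyond the 10 genes, the pathway was followed in 5 lists. Their medians are not corrected for length, and long transcripts read higher with si-METTL3. Among 23 partners and chaperones of the Argonaute complex, 2 fell and none rose (median log2 fold change 0.04, against 0.03 over all tested genes). That is 8.7% called, against 18.9% of all tested genes. The RNA helicase gene Mov10, which binds Argonaute complexes and is also known as an interferon-induced antiviral gene, fell from 35.4 ± 7.80 to 14.4 ± 1.28 CPM (SD, n = 3; -1.30, SE 0.17, edgeR adjusted p = 0.00489). Its counts were 1251, 830 and 1583 with si-NC and 416, 349 and 361 with si-METTL3. Ajuba, a LIM-domain protein that links Argonautes to their silencing partners, fell from 148 ± 10.2 to 90.7 ± 5.65 CPM (-0.71, SE 0.08, edgeR adjusted p = 0.00305). Both calls held with any 1 library left out (6 of 6). DESeq2 passed 5 of the 23, 2 of them higher, and the length correction 4, 1 of them higher. The GW182 scaffold genes, which connect Argonautes to deadenylation, did not pass: Tnrc6b had 0.78 (SE 0.31, edgeR adjusted p = 0.123), Tnrc6a 0.29 (SE 0.21) and Tnrc6c -0.04 (SE 0.06). Tnrc6b passed when corrected for length (0.50, edgeR adjusted p = 0.045). Snd1, a nuclease of the complex, was at 0.12 (SE 0.09).

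Among 25 tested cofactors of the nuclear step, 3 rose and 2 fell (median 0.13, not corrected for length, against 0.03 over all tested genes). The 20% called is near the 18.9% of all tested genes and is no result about the list. Adar, the editing enzyme whose long form is interferon-inducible, fell from 199 ± 12.1 to 90.4 ± 5.79 CPM (-1.14, SE 0.08, edgeR adjusted p = 0.000446), and all 6 leave-one-out fits kept the call. Its counts were 7251, 5586 and 7548 with si-NC and 2990, 2110 and 2065 with si-METTL3. The helicase gene Dhx9 rose (0.74, edgeR adjusted p = 0.0399), as did Adarb1 (0.34, 0.0412) and Mapk14 (0.23, 0.0357), and Ran, the GTPase that drives export with Xpo5, fell (-0.34, 0.0302). These 4 calls held in 1 of 6 leave-one-out fits, and with the length correction those of Dhx9 (0.60, adjusted p = 0.0549), Adarb1 (0.08, 0.689) and Mapk14 (0.16, 0.117) were lost. Hnrnpa2b1, reported to read m6A in primary microRNAs, was at 0.17 (SE 0.10, edgeR adjusted p = 0.278).

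Of 17 tested genes of microRNA tailing, trimming and decay, 2 fell and none rose (median 0.00, against 0.03 over all tested genes). The share called was 11.8%, against 18.9% of all tested genes. The nuclear exosome nuclease gene Exosc10 (-0.35, edgeR adjusted p = 0.0254) and the poly(A)-specific ribonuclease gene Parn (-0.30, 0.043) were the 2, and each call held in 1 of 6 leave-one-out fits.

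MicroRNA levels were not measured, but some microRNAs lie in introns of genes that were. RefSeq's hairpins lay within 33 of the 39 listed protein-coding hosts on the same strand. The others were Dnm2, Dnm3, Lpp, Col27a1, Sfmbt2 and Iars2. Of 37 hosts tested, 4 rose and 2 fell (median 0.22, not corrected for length, against 0.03 over all tested genes). The 16.2% called is near the 18.9% of all tested genes. The microRNAs of those 6 are shown because their hosts changed, 1 arm per hairpin, with the seed in capitals and GRCm38.p6 coordinates. Each has a seed of its own.
mmu-miR-26a-5p, host Ctdspl (chr9:119031811-119031832, plus strand): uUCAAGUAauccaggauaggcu
mmu-miR-326-3p, host Arrb1 (chr7:99552328-99552348, plus strand): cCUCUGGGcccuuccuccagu
mmu-miR-218-5p, host Slit3 (chr11:35616840-35616860, plus strand): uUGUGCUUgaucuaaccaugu
mmu-miR-224-5p, host Gabre (chrX:72261085-72261105, minus strand): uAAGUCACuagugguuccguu
mmu-miR-452-5p, host Gabre (chrX:72262271-72262292, minus strand): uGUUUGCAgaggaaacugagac
mmu-miR-107-3p, host Pank1 (chr19:34820700-34820722, minus strand): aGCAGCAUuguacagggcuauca
mmu-miR-101b-3p, host Rcl1 (chr19:29135338-29135356, plus strand): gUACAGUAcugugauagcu

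Ctdspl, a phosphatase gene and host of the hairpin Mir26a-1, had 873, 587 and 778 counts with si-NC and 1357, 855 and 1050 with si-METTL3, a rise from 21.8 ± 2.77 to 41.1 ± 2.56 CPM (0.91, SE 0.12, edgeR adjusted p = 0.00408). The arrestin gene Arrb1 rose from 64.3 ± 5.20 to 98.5 ± 2.90 CPM (0.62, SE 0.08, edgeR adjusted p = 0.00485). The calls of Ctdspl and Arrb1 held with any 1 library left out (6 of 6), and that of Slit3, a guidance ligand gene (0.61, edgeR adjusted p = 0.0133), in 3. Slit2, which holds the other miR-218 hairpin, Mir218-1, had a value of the opposite sign, -0.39 (SE 0.13, edgeR adjusted p = 0.0757), and passed when corrected for length (-0.64, edgeR adjusted p = 0.0128). Gabre, a GABA receptor subunit gene, rose by 0.74 (edgeR adjusted p = 0.0244), but its counts were low, 157 to 187 with si-NC and 195 to 257 with si-METTL3, and the call held in 1 of 6. Pank1, a pantothenate kinase gene, fell from 8.93 ± 1.02 to 5.13 ± 0.850 CPM (-0.80, SE 0.16, edgeR adjusted p = 0.0193; 4 of 6), and Rcl1 by 0.32 on the log2 scale (edgeR adjusted p = 0.0282; 1 of 6). All 6 calls held when corrected for length. Whether the microRNAs followed their hosts cannot be read from these data.

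For noncoding hosts, 111 transcripts of 14 of the 22 listed genes were found in the lncRNA table, and 19 transcripts of 7 genes had enough counts. None passed (0 with edgeR, 0 at an unadjusted p under 0.05, and 0 with DESeq2, which gave 1 of them no adjusted p), where 0.733% of all tested transcripts did, so that 0 of 19 is near the background. The host of the miR-17-92 cluster, Mir17hg, had 259, 198 and 259 counts with si-NC and 204, 129 and 197 with si-METTL3 (log2 fold change -0.15, SE 0.20, edgeR adjusted p = 0.765).

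**Figure D5:**
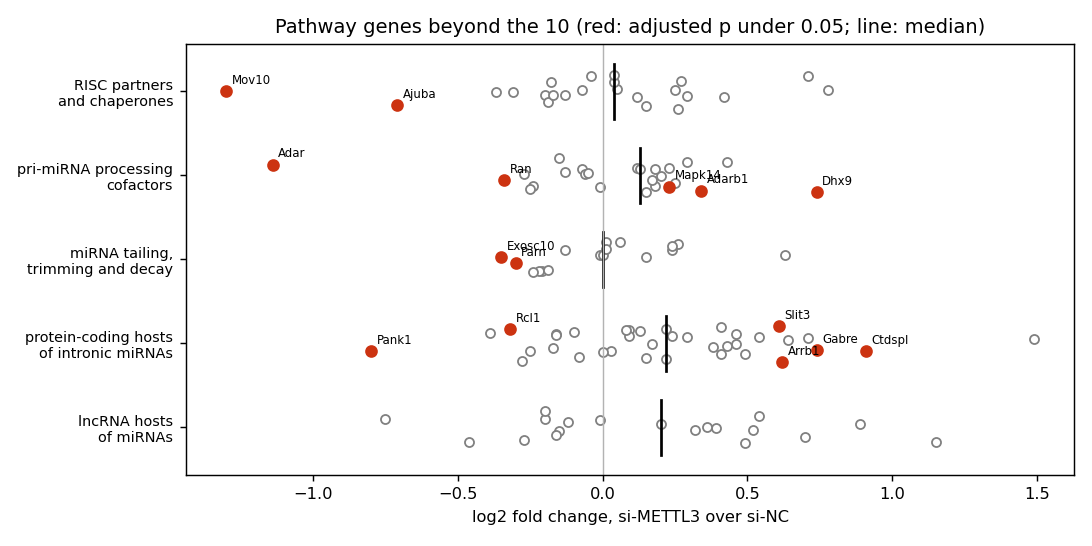
Log2 fold change, si-METTL3 over si-NC, of each tested gene or transcript in the 5 pathway lists; filled red circles passed adjusted p under 0.05, and the vertical line is the list's median. Mov10 (-1.30), Adar (-1.14) and Pank1 (-0.80) lie farthest to the left among those that passed, and Ctdspl (0.91) farthest to the right.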

How the data were processed

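RNA levels were measured in 6 libraries. Per the file headers, the authors deposited counts and FPKM for each library, group means, a log2 fold change, p-values and adjusted p-values. The submitters' processing notes name mm9, Bowtie2, fastp, RSEM and StringTie without versions or roles, and the authors' test is not stated. The deposited counts went into edgeR (version 4.0.16, R 4.3.3; filterByExpr, TMM, quasi-likelihood fit of the group, Benjamini-Hochberg over all tested features, threshold 0.05), each table apart. CPM uses the effective library size; intervals are 95%. Deposited counts and FPKM gave each gene's transcript length: 158 of 160 genes with 1 annotated transcript and at least 2000 counts in every library matched GENCODE M21 within 1%. Annotation and coordinates are from GENCODE M21 and RefSeq GRCm38.p6, matched by identifier or symbol; no coordinate was converted. Alternatives used DESeq2 1.42.0 and limma 3.58.1, on FPKM with pseudocounts of 1 and 0.1. The scripts were tested on simulated data. Figures: matplotlib 3.10.9.

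The genes and lists were chosen with earlier results of these data known. Named were the 10 genes, Mettl3, the 4 called genes with the smallest adjusted p in each direction of each list, a preset set of silencing and RNA-sensing partners, and the 3 genes most like the gene with the smallest adjusted p. Mir17hg, Slit2, Dgcr8-206 and the overlapping genes were named after their values were seen.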

Additional observations from a re-analysis of the deposited data

How the results depend on the processing

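With 1 library left out, called mRNA genes ranged from 665 to 4917 (2468 over all 6) and called lncRNA transcripts from 0 to 77 (42 over all 6). The number of the 9 tested Argonaute and processing genes that passed ranged from 0 to 5, and in the lists from 2 to 11 (Argonaute partners), 1 to 11 (nuclear cofactors), 0 to 6 (tailing and decay), 2 to 16 (coding hosts) and 0 to 0 (noncoding hosts). The log2 fold changes ranged from 0.27 to 0.36 for Ago1, -0.32 to -0.24 for Ago2, -0.06 to 0.93 for Ago3, 0.10 to 0.32 for Dicer1, 0.00 to 0.06 for Drosha, -0.08 to 0.02 for Dgcr8, -0.38 to -0.26 for Tarbp2, 0.00 to 0.13 for Prkra, -0.14 to 0.00 for Xpo5 and -0.63 to 0.12 for Eif2ak2.

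With the replicate number as a block, 1273 mRNA genes and 0 lncRNA transcripts passed, with 0 of the 9 genes, 2 nuclear cofactors and 0 genes of tailing and decay; Ago1 (0.32, adjusted p = 0.0614) and Ago2 (-0.27, adjusted p = 0.0743) kept their size without passing. The numbers were not taken to pair the libraries, because the labels do not say that they do. Deviations of same-numbered libraries from their group means correlated at 0.071, 0.2 and -0.31. Those of differently numbered libraries ran from -0.395 to 0.337. Deviations from a group's own mean are tied to one another, so these correlations cannot decide on pairing.

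On log2(FPKM + 1), limma gave Ago1 0.30 (adjusted p = 0.0547), Ago2 -0.24 (0.0501) and Ago3 -0.14 (0.741). With a pseudocount of 0.1 these were 0.33 (0.0523), -0.24 (0.052) and -0.15 (0.769), and with no filter on low values 0.30 (0.0736), -0.24 (0.0642) and -0.14 (0.798). The length correction left 1 of the 9 genes (Ago2), with Ago1 at 0.07 (0.723) and Drosha at -0.14, and passed 4 Argonaute partners. With GC content added, an alternative chosen after seeing the data, 3715 mRNA genes passed, and Ago1 was 0.17 (0.143), Ago3 -0.07 and Drosha -0.05; Ago2 passed. DESeq2 passed 213 lncRNA transcripts and 5 Argonaute partners, DESeq2's size factor method within edgeR 4 of these partners, and no filter on low counts 150 lncRNA transcripts, 3 nuclear cofactors and 1 gene of tailing and decay. The cause of these differences was not tested. Of 357 alternative values of the 21 genes named from the lists by the preset rule, 280 kept direction and side of the threshold. Mettl3, Slit2, Mir17hg, the overlapping genes and the genes most like Ago1 are not among these 21.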
